A study of Homo sapiens with 9 samples.

Results

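ETS1 and GABPA are the 2 endogenous ETS proteins mapped by ChIP-seq, the sequencing of DNA precipitated with a chromatin protein, in RWPE-1 cells, human prostate epithelial cells that were immortalised but do not form tumours. Their deposited peak lists together held 10250 of the 27416 regions in the 6 lists of the series. An ETS1 and a GABPA peak with 1 bp or more in common were taken as shared, and every other peak was taken as specific to its list. The ETS1 list consisted of 207 shared and 1973 specific peaks, and the GABPA list of 207 shared and 7863 specific peaks. Both proteins were precipitated with antibodies to the proteins themselves from RWPE-1 cells without retroviral expression. The lists used for comparison came from RWPE-1 cells with retroviral FLAG-ERG or FLAG-ETV1, precipitated with a FLAG antibody, and from untransduced PC3 prostate carcinoma cells, precipitated for JUND or ETV4. Each list came from 1 library of a cell line, so there is no error between replicates, and no test between factors could be made. The 95% intervals given below cover counting error only, and the sequencing depth is unknown.

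ETS transcription factors share a DNA-binding domain that reads a short element centred on GGA, which raises the question of how far members in the same cell occupy the same regions. ETS1 is a widely studied member of the family that is phosphorylated downstream of Ras and MAPK signalling and can bind DNA together with partners such as RUNX proteins. GABPA forms a complex with GABPB, which carries the activation domain, and is known for binding near the start sites of housekeeping and mitochondrial genes. ERG, ETV1 and ETV4 are ETS proteins that are overexpressed in prostate cancers after gene rearrangement, and JUND is a subunit of AP-1, a frequent neighbour of ETS sites at enhancers. The peak positions are on hg18. Neither peak sequences nor gene names are given here, because no sequence or annotation of that build was used.

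Most peaks of the 2 lists did not overlap. A peak absent from a list need not be an unbound region, since the threshold of the lists is unknown. GABPA overlapped 9.50% of the ETS1 peaks (Wilson 95% interval 8.34 to 10.8%), and ETS1 overlapped 2.57% of the GABPA peaks (2.24 to 2.93%). No ETS1 peak overlapped more than 1 GABPA peak, and no GABPA peak more than 1 ETS1 peak. The latter could not occur, since ETS1 midpoints were at least 1140 bp apart and no peak was wider than 501 bp. The GABPA list is the longer, which lowers its own shared percentage and raises that of ETS1. With the GABPA list cut to its first rows, as many as the ETS1 list holds, 104 pairs remained, 4.77% of either list. With the same number of evenly spaced rows, 59 pairs remained, 2.71% of either list.

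The overlap rule limits how far apart the peaks of a shared pair can be centred. No peak of the lists was wider than 501 bp, so the midpoints of any overlapping pair are less than 501 bp apart. The midpoints of the 207 pairs lay a median of 121.5 bp apart (95% interval of the median 102 to 148 bp), from 0.5 to 482.5 bp. In 88 pairs, 42.5% (36.0 to 49.3%), the midpoints were at most 100 bp apart. The overlap itself had a median of 351 bp and was under 50 bp in 8 pairs. Similar medians were found where ETS1 overlapped FLAG-ERG, 131.5 bp (113 to 148 bp), and where it overlapped FLAG-ETV1, 119.5 bp (96.5 to 143.5 bp), with intervals that overlapped that of ETS1 and GABPA. Those pairs were chosen by the same rule, and no comparison with randomly placed peaks was made.

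The number of pairs fell abruptly outside the overlap and then declined slowly with distance. Counting every ETS1 to GABPA pair, 208 had midpoints less than 500 bp apart and 29 had midpoints 500 to 1000 bp apart. From 1000 to 2000 bp there were 51 pairs, or 25.5 per 500 bp of distance, and from 5000 to 10000 bp 200 pairs, or 20 per 500 bp. No number under random placement was computed, so whether the numbers beyond the overlap are in excess was not tested. GABPA peaks lay on either side of ETS1 in like numbers, with 97 pairs in the 500 bp below and 111 in the 500 bp above the ETS1 midpoint.

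**Figure D1:**
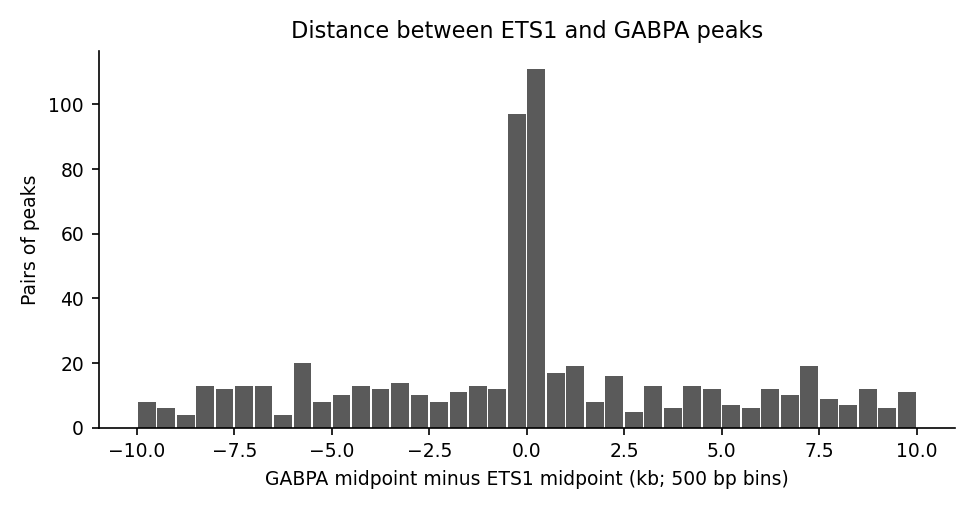
Number of ETS1 and GABPA peak pairs (vertical axis) by the signed distance from the ETS1 to the GABPA midpoint in kb (horizontal axis, 500 bp bins). The 2 central bins hold 97 and 111 pairs, and every other bin holds 20 or fewer.

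Beyond the shared pairs, few specific peaks of either protein lay within 1 kb of a peak of the other. Only 30 ETS1-specific peaks, 1.52% (1.07 to 2.16%), had a GABPA midpoint within 1 kb, and 335, 17.0% (15.4 to 18.7%), had one within 10 kb. The median distance from an ETS1-specific peak to the nearest GABPA peak was 52.3 kb (48.5 to 56.4 kb). From a GABPA-specific peak to the nearest ETS1 peak it was 255 kb (246 to 267 kb), a distance that the shorter ETS1 list lengthens. At the scale of 1 Mb most windows with ETS1 also held GABPA. Of 1068 windows with an ETS1 peak, 937 also had a GABPA peak, 87.7%, and the 131 others held 159 ETS1 peaks. GABPA was in 1923 of the 2054 windows with either protein. That share leaves out windows with neither protein and cannot fall below the share in ETS1 windows, so it is no base for comparison. No share over all windows was computed, so whether the lists run together at this scale was not tested. Another 986 windows had GABPA and no ETS1. Over the 2054 windows with either protein, the peak numbers correlated with a Spearman rho of 0.38 and a Pearson r of 0.47, given as a description, since neighbouring windows share gene density and mappability. Windows with neither protein were left out here too, which by itself can lower such values.

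The shared regions named here are those present in the most other lists, with ties going to the closest midpoints. None was found in all of the other 4 lists, and 2 were found in 3 of them. The region on chromosome 3 at 130362614 to 130363175 held an ETS1 peak at 130362614 to 130363071 and a GABPA peak at 130362695 to 130363175, with midpoints 92.5 bp apart. It also overlapped FLAG-ERG, FLAG-ETV1 and PC3 ETV4, and its GABPA peak was in row 5 of the GABPA file. The region on chromosome 5 at 40870890 to 40871528 overlapped the same 3 lists, with ETS1 and GABPA midpoints 161.5 bp apart. The most closely centred pair with 2 other lists lay on chromosome 7 at 98935375 to 98935866, with midpoints 0.5 bp apart. The next lay on chromosome 5 at 71182380 to 71182816 (1 bp apart) and on chromosome 11 at 46678724 to 46679203 (4 bp apart). All 3 overlapped FLAG-ERG and FLAG-ETV1 and neither PC3 list. Of the 207 pairs, 100 overlapped none of the other 4 lists, 68 overlapped 1, 37 overlapped 2 and 2 overlapped 3.

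Regions held by both endogenous proteins overlapped the ectopic ETS proteins most often. FLAG-ETV1 overlapped 84 of the 207 ETS1 peaks with GABPA, 40.6% (34.1 to 47.4%), and 287 of the 1973 ETS1-specific peaks, 14.5% (13.1 to 16.2%). The difference was 26.0 percentage points (Newcombe 95% interval 19.4 to 33.0). Of the GABPA-specific peaks, FLAG-ETV1 overlapped 393, or 4.998% (4.54 to 5.50%). Of all 10043 merged ETS1 and GABPA regions, 7.63% overlapped FLAG-ETV1. FLAG-ERG overlapped 53 of the ETS1 peaks with GABPA, 25.6% (20.1 to 32.0%), 168 of the ETS1-specific peaks, 8.51% (7.36 to 9.83%), and 175 of the GABPA-specific peaks, 2.23% (1.92 to 2.58%), against 3.95% of all merged regions. Between ETS1 peaks with and without GABPA the FLAG-ERG shares differed by 17.1 percentage points (11.5 to 23.5), and by 10.7 (5.14 to 17.6) with chromosomes 5, 9 and 20 left out. Within the GABPA list, peaks with ETS1 stood above GABPA-specific peaks by 36.1 percentage points for FLAG-ETV1 (29.6 to 42.9) and by 21.9 for FLAG-ERG (16.6 to 28.2). Both FLAG lists overlapped 35 of the shared ETS1 peaks, 16.9% (12.4 to 22.6%), 4.51% (3.68 to 5.52%) of the ETS1-specific peaks and 1.03% (0.830 to 1.28%) of the GABPA-specific peaks. Over the whole lists, both FLAG lists overlapped 5.69% of all ETS1 peaks and 1.44% of all GABPA peaks.

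ETS1-specific regions were also more often regions of each of the other 4 lists than GABPA-specific regions were. The share was higher by 9.55 percentage points for FLAG-ETV1 (7.98 to 11.2), 6.29 for FLAG-ERG (5.08 to 7.64), 2.06 for PC3 ETV4 (1.43 to 2.87) and 1.89 for PC3 JUND (1.28 to 2.66). As ratios of the shares these were 2.91, 3.83, 5.39 and 5.24. At least 1 of the 4 lists overlapped 20.2% of the ETS1-specific (18.5 to 22.0%), 6.83% of the GABPA-specific (6.29 to 7.41%) and 50.7% of the shared ETS1 peaks (44.0 to 57.5%). For all ETS1 peaks the share was 23.1% and for all GABPA peaks 7.93%. The overlaps were also counted from the side of the FLAG lists. Of the FLAG-ERG peaks, 221 overlapped ETS1 and 225 overlapped GABPA, 9.55% and 9.72%, and 50 overlapped both. Of the FLAG-ETV1 peaks, 371 overlapped ETS1 and 478 overlapped GABPA, 4.25% and 5.47%.

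PC3 JUND, the AP-1 subunit, overlapped a small share of the specific peaks of both proteins and none of the shared ones. PC3 JUND overlapped 46 of the 1973 ETS1-specific peaks, 2.33% (1.75 to 3.10%), and 35 of the 7863 GABPA-specific peaks, 0.445% (0.320 to 0.618%), beside 0.807% of all merged regions. It overlapped 0 of the 207 shared peaks, with a Wilson upper limit of 1.82%. By the simpler rule that a count of 0 allows 3 counts of the total, the limit is 1.45%. The share in ETS1 peaks with GABPA was below that in ETS1-specific peaks by 2.33 percentage points (difference -2.33, Newcombe interval -3.10 to -0.420). With overlap required over 50% of both peaks the difference was -1.88 and its interval, -2.57 to 0.533, included 0, and the interval also included 0 with gaps allowed and with either GABPA list of the ETS1 size. The difference from the GABPA-specific peaks was -0.445, with an interval that included 0 (-0.618 to 1.38), and with gaps allowed it was 0.4998. The JUND list comes from another cell line, which these counts cannot separate from the factor. PC3 ETV4, an ETS protein, did overlap shared regions, 8 of the 207 ETS1 peaks with GABPA, 3.86% (1.97 to 7.44%), against 2.53% of the ETS1-specific (1.93 to 3.33%), 0.471% of the GABPA-specific peaks (0.342 to 0.648%) and 0.946% of all merged regions. The difference between ETS1 peaks with and without GABPA, 1.33 percentage points, had an interval from -0.722 to 4.96. It was 4.27 (0.759 to 10.8) with the first GABPA rows and -0.992 (-2.59 to 6.33) with evenly spaced ones. Within the GABPA list, PC3 ETV4 overlapped 2.91 percentage points more of the peaks with ETS1 than of the GABPA-specific peaks (1.17 to 6.35), or 6.39 and 1.55 in the same reduced lists, both with intervals above 0.

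**Figure D2:**
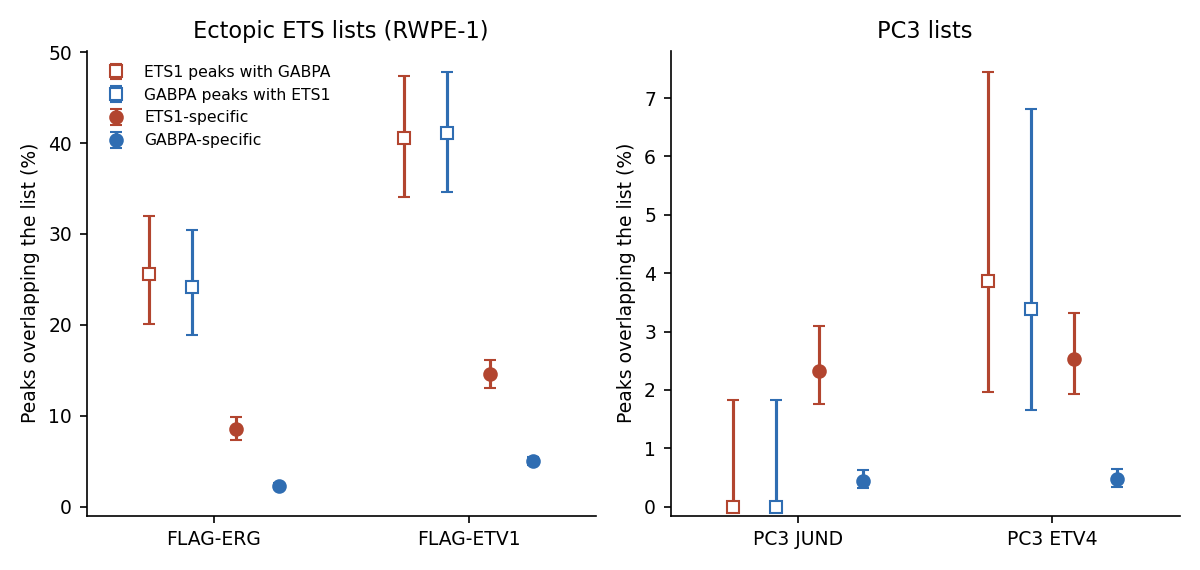
Share of peaks (%) that overlap FLAG-ERG or FLAG-ETV1 (left) and PC3 JUND or PC3 ETV4 (right, with a smaller scale), for shared peaks (open squares) and specific peaks (filled circles) of ETS1 (red) and GABPA (blue); bars are Wilson 95% intervals. Shared peaks stand highest for both FLAG lists, and for PC3 JUND they stand at 0.

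The distribution over chromosomes differed in part. The Wilson intervals of the ETS1 and GABPA shares were apart on 8 of 24 chromosomes, with ETS1 higher on 3 and GABPA higher on 5. With the GABPA list at the ETS1 size they were apart on 3 chromosomes with first rows and on 5 with evenly spaced rows. By the ratio of the shares, ETS1 stood highest over GABPA on chromosome 1, with 14.4% (12.9 to 15.9%) of its list against 8.70% (8.10 to 9.33%) and a log2 ratio of 0.72. Next was the gene-dense chromosome 19, with 8.07% (7.00 to 9.29%) against 5.34% (4.87 to 5.85%) and a log2 ratio of 0.60, and then chromosome 10, with 7.16% (6.15 to 8.32%) against 5.60% (5.12 to 6.12%) and 0.35. The ratio was lowest on chromosome 21, where 17 ETS1 peaks (0.780%) stood against 149 GABPA peaks (1.85%; log2 ratio -1.24), on chromosome 22, with 17 peaks (0.780%) against 139 (1.72%; -1.14), and on X, with 9 (0.413%) against 61 (0.756%; -0.87). The intervals overlapped on X. Chromosome 1 also held 15.0% of the FLAG-ERG, 11.6% of the FLAG-ETV1, 10.6% of the PC3 JUND and 7.67% of the PC3 ETV4 list. These shares were not set against chromosome length. The shared regions were most frequent on chromosome 19, with 29 of the 207 (14.0%, 9.93 to 19.4%), where GABPA overlapped 16.5% of the ETS1 peaks (11.7 to 22.7%), against 7.99% (5.47 to 11.5%) on chromosome 1.

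**Figure D3:**
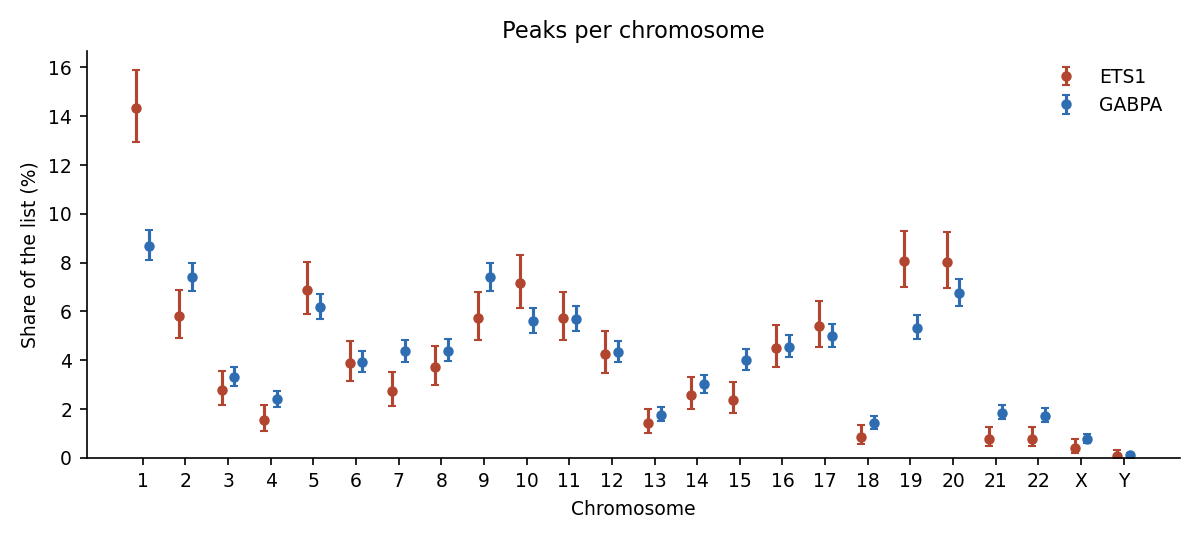
Share of the ETS1 (red) and GABPA (blue) peaks on each chromosome (%), with Wilson 95% intervals. ETS1 stands apart above GABPA on chromosomes 1, 10 and 19, and below it on 7, 9, 15, 21 and 22. These are the full lists, and with GABPA at the ETS1 list size 3 or 5 chromosomes stand apart.

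GABPA peaks lay near the outermost peaks of a chromosome more often than ETS1 peaks did. These outermost peaks need not lie at the physical ends of the chromosome. Within 5 Mb of the outermost peaks of a chromosome (the first and last of all 6 lists, since no chromosome lengths of hg18 were used) lay 24.2% of the GABPA peaks (23.3 to 25.1%) and 13.7% of the ETS1 peaks (12.3 to 15.2%), a difference of 10.5 percentage points (8.69 to 12.1). GABPA had the higher share on each of the 23 chromosomes compared, Y left out. On chromosome 9 it was 28.1% against 7.20%, and on chromosome 20 31.1% against 11.4%. On chromosome 14, with 28.8% against 28.6%, and on chromosome 19, with 27.4% against 26.7%, the shares were nearly equal. With the ETS1 shares weighted by the GABPA chromosome counts, the ETS1 value was 13.8%. The other lists were closer to ETS1, with 15.1% for FLAG-ERG (13.7 to 16.6%), 13.8% for FLAG-ETV1 (13.1 to 14.5%), 10.5% for PC3 JUND and 6.84% for PC3 ETV4.

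Shared peaks lay near the outermost peaks more often than ETS1-specific peaks. Of the 207 shared peaks, 50 lay in the outer 5 Mb, 24.2% (18.8 to 30.4%), against 12.6% of the ETS1-specific peaks (11.2 to 14.2%) and 24.2% of the GABPA-specific peaks (23.2 to 25.1%). In the outer 10 Mb the shared peaks, with 30.0% (24.1 to 36.5%), stood between the ETS1-specific (20.4%, 18.7 to 22.3%) and the GABPA-specific peaks (36.0%, 35.0 to 37.1%). Put the other way, GABPA overlapped 16.7% of the outer ETS1 peaks (12.9 to 21.4%) and 8.35% of the others (7.18 to 9.68%). FLAG-ETV1 overlapped 18.1% and 16.9% of the same ETS1 peaks, with overlapping intervals.

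**Figure D4:**
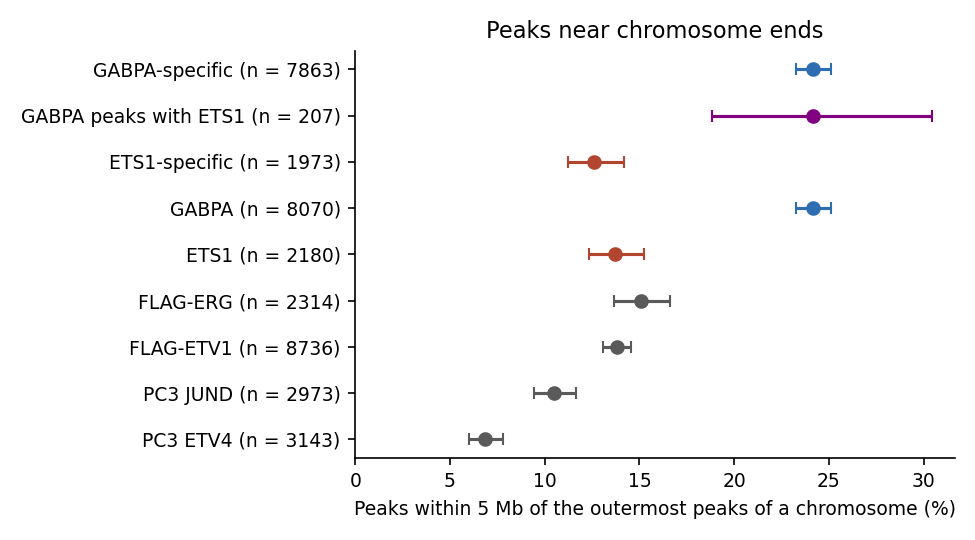
Share of peaks (%) within 5 Mb of the outermost peaks of their chromosome, for the 6 lists and for shared and specific peaks, with Wilson 95% intervals. GABPA and the shared peaks stand at 24.2%, and all other lists stand between 6.84 and 15.1%.

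The densest places of the 2 lists were different. The 3 windows of 1 Mb with the most ETS1 peaks were also those with the largest excess of ETS1 as a share of its list. They were chromosome 1, 199000001 to 200000000 (16 ETS1 and 12 GABPA peaks), chromosome 1, 224000001 to 225000000 (16 and 11), and chromosome 19, 49000001 to 50000000 (14 and 9). The first also held 20 FLAG-ERG and 27 FLAG-ETV1 peaks, whereas the window on chromosome 19 held 3 and 4. The windows with the most GABPA peaks were chromosome 20, 60000001 to 61000000 (41 GABPA and 3 ETS1 peaks), chromosome 20, 61000001 to 62000000 (41 and 6), and chromosome 9, 136000001 to 137000000 (37 and 1). The last was also the window with the largest GABPA excess, and among the 3 largest was a further window of the same chromosome, 139000001 to 140000000, with 37 GABPA and 2 ETS1 peaks.

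Peaks of the full GABPA list were more closely spaced than those of ETS1, and at equal list size they were not. The median distance between successive midpoints was 337 kb in ETS1 (303 to 372 kb) and 96.8 kb in GABPA (92.3 to 102 kb). Another peak of the same list lay within 10 kb of 6.10% of the ETS1 peaks (5.17 to 7.18%) and of 18.0% of the GABPA peaks (17.2 to 18.8%), a difference of 11.9 percentage points (10.5 to 13.2). With the GABPA list at the size of the ETS1 list, its median distance was 413 kb in first rows (383 to 461 kb), above that of ETS1 with intervals apart, and 392 kb in evenly spaced rows (356 to 423 kb), with overlapping intervals. The GABPA share within 10 kb was 5.37% in its first rows and 6.47% in evenly spaced rows, with differences of -0.734 (-2.12 to 0.651) and 0.367 (-1.08 to 1.82) percentage points. The GABPA share in the outer 5 Mb was 24.8% and 24.6% in the same reduced lists. FLAG-ERG, a list of about the size of ETS1, had 9.68% of its peaks within 10 kb of another (8.54 to 11.0%).

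Runs of peaks, each at most 10 kb from the next, held at most 3 ETS1 peaks and at most 6 GABPA peaks. There were 64 ETS1 runs, 5 of them with 3 peaks, and 659 GABPA runs, 97 of them with 3 or more. The first ETS1 runs of 3 by position were on chromosome 1, at 200824863 to 200829536 and at 203530049 to 203534655, and on chromosome 8 at 146038352 to 146049763. None of these held a GABPA peak, and each held at least 1 FLAG-ERG peak. The first GABPA runs of 6 were on chromosome 8 at 144670988 to 144692042, and on chromosome 9 at 126077870 to 126101835 and at 136732664 to 136752230. None of these held an ETS1 or a FLAG-ERG peak. Over the whole lists, ETS1 overlapped 2.57% and FLAG-ERG 2.79% of the GABPA peaks. GABPA overlapped 9.50% and FLAG-ERG 10.1% of the ETS1 peaks. With shares this low, an absence from a few short runs is not particular to them. Another ETS1 peak lay within 10 kb of 3.38% (1.65 to 6.81%) of the shared and 6.39% (5.39 to 7.55%) of the ETS1-specific peaks. In the GABPA list the corresponding shares were 14.5% (10.3 to 19.9%) and 18.1% (17.2 to 19.0%), and in both lists the intervals overlapped. GABPA peaks were slightly narrower, with a median of 473 bp against 490 bp for ETS1, and 137 of them (1.70%) were narrower than 216 bp, the narrowest ETS1 peak. Shared GABPA peaks had a median width of 486 bp.

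Shared peaks were concentrated in the first rows of both files, whose order the labels do not describe. In the ETS1 file GABPA overlapped 17.4% of peaks in the first 20% of rows (14.2 to 21.3%) and 4.13% in the last 20% (2.63 to 6.43%), with 10.8%, 7.57% and 7.57% in the parts between. ETS1 overlapped 5.70% of the first 20% of the GABPA rows (4.67 to 6.94%) and between 1.43 and 2.11% of each later part. The differences between the first and last parts were 13.3 (9.30 to 17.4) and 3.59 (2.28 to 4.97) percentage points. With first GABPA rows at the ETS1 list size they were 7.34 and 11.0, and with evenly spaced rows 4.59 and 2.75, each with an interval above 0. Of the 207 pairs, 76 lay in the first 20% of the ETS1 file, 92 in the first 20% of the GABPA file and 36 in both. Within the shared pairs the row positions of the 2 files were only weakly related (Spearman rho 0.11 over 207 pairs, a description). The pairs nearest the top of both files lay on chromosome 11 at 2378107 to 2378607 (ETS1 row 20, GABPA row 13), chromosome 14 at 76993615 to 76994194 (rows 29 and 65) and chromosome 5 at 171366215 to 171366804 (rows 25 and 84). The first of these overlapped FLAG-ERG and FLAG-ETV1, as did the second, and the third overlapped FLAG-ERG.

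Overlap with the ectopic proteins also differed along the rows. In the ETS1 file the FLAG-ETV1 share went from 25.5% in the first 20% of rows to 11.2% in the last, through 19.0%, 15.1% and 14.2%. In the GABPA file it was 11.1% in the first part, 3.90% in the second, and then 4.15%, 4.77% and 5.70%. JUND ran the other way in the ETS1 file, from 0.917% (0.357 to 2.33%) to 2.98% (1.75 to 5.03%). Since shared peaks lay early, their higher FLAG overlap was also compared within each 20% of rows. FLAG-ETV1 overlapped between 33.3 and 46.8% of the shared and between 10.3 and 22.5% of the specific ETS1 peaks in the 5 parts, and each of the 5 differences had an interval above 0. For FLAG-ERG the interval was above 0 in 4 of the 5 parts, the last, with 18 shared peaks, being the exception (9.97 percentage points, -1.22 to 32.6). In the GABPA file the FLAG-ERG difference was 29.6 in the first part. In the fourth part, with 1 of 28 shared peaks overlapped, it was 2.75 (-0.243 to 16.9), and in the other parts it ran from 11.4 to 24.9. The FLAG-ETV1 differences in that file ran from 20.6 to 40.1, each with an interval above 0. The higher FLAG-ERG share of ETS1-specific over GABPA-specific peaks also held in each part, with differences from 5.12 to 6.99 percentage points, as did that of FLAG-ETV1, with differences from 5.29 to 13.7, and of PC3 ETV4, with differences from 1.28 to 2.79. For PC3 JUND the interval was above 0 in 4 parts and included 0 in the first (0.651, -0.183 to 2.38).

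**Figure D5:**
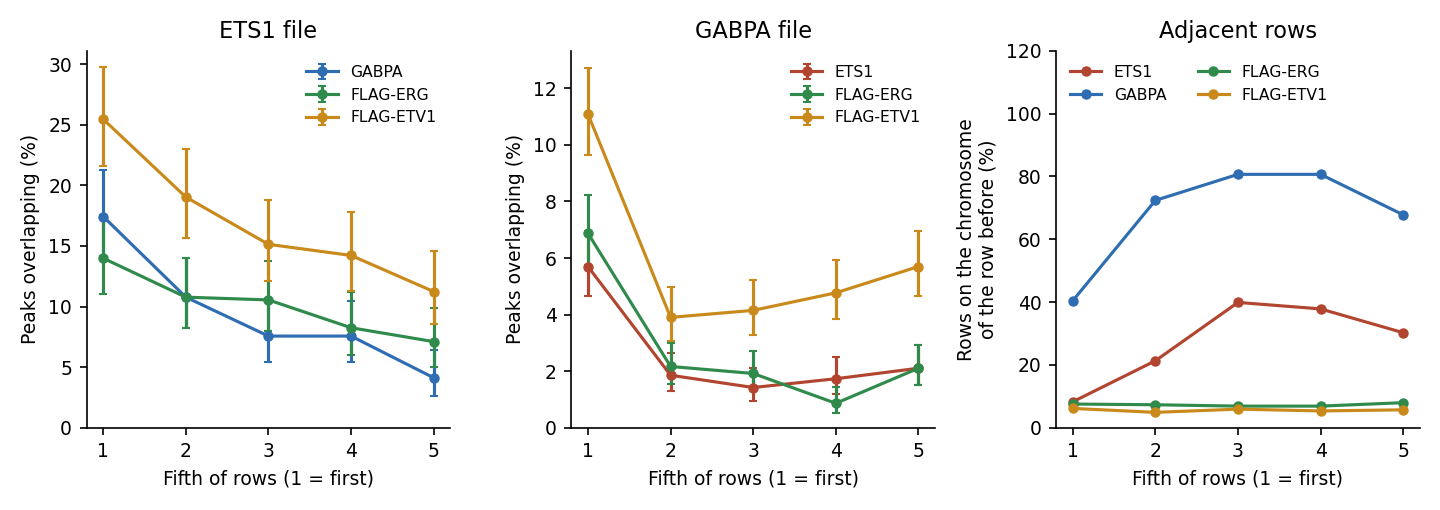
Left and centre, share of peaks (%) that overlap another list in successive 20% parts of the rows of the ETS1 and the GABPA file, with Wilson 95% intervals. Right, share of rows (%) on the same chromosome as the row before, without error bars: in the GABPA file it runs from 40.4 to 80.7%, and in the FLAG files it stays at or below 8.01%.

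The chromosomes of the first and the last rows also differed. In the ETS1 file the share of a chromosome in the first and in the last 20% of rows differed, with an interval that excluded 0, for 4 of 23 chromosomes. Chromosome 19 was higher in the first rows, with 14.9% against 5.05% (difference 9.86 percentage points, 5.94 to 13.9), and chromosomes 5, 15 and 20 were higher in the last. In the GABPA file 11 of 23 differed, with chromosomes 1, 2, 6, 8, 12, 21 and X higher in the first rows and 9, 15, 18 and 20 higher in the last. Chromosomes 15 and 20 were therefore higher in the last rows of both files. Chromosome 20 held 6.19% of the first and 11.2% of the last ETS1 rows, and 5.39% and 10.2% of the GABPA rows. Chromosome 15 held 1.61% and 3.90% of the ETS1 rows, and 3.28% and 5.58% of the GABPA rows. Chromosome 9 differed in the GABPA file (5.70% and 11.3%), while in the ETS1 file its interval included 0 (difference -0.917, -4.10 to 2.24). Chromosome 5 differed in the ETS1 file (4.59% and 8.72%), while in the GABPA file its interval included 0 (difference -1.24, -2.95 to 0.468). In the FLAG-ERG file 1 of 23 chromosomes differed in this way, and in the FLAG-ETV1 file 0 did. Rows of one chromosome often followed each other, for 68.4% of the GABPA and 27.5% of the ETS1 rows. The intervals treat rows as independent, so in these 2 files they do not measure the spread of a chromosome's share. Copy number was not measured, and its part in the differences between first and last rows was not tested.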

How the data were processed

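Per the labels' protocols, an Illumina kit for ChIP-seq was used to make the libraries. The authors deposited each peak list as 3 columns without a header (chromosome, start and end on hg18, per the labels), with 0 columns of score, height or p-value. For the aligner, the peak caller, its control and its threshold, nothing is given in the sources used here. Starts were read as counted from 0 and are printed counted from 1. The 2 inputs and the FLAG control were not analysed here.

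Overlaps, midpoint distances, spacing, windows of 1 Mb and row positions were computed with Python 3.11.15, numpy 2.4.6, pandas 2.3.3, scipy 1.17.1 and matplotlib 3.10.9. Shares carry Wilson intervals, differences of shares Newcombe intervals, and medians binomial order-statistic intervals, all at 95%. The functions were tested on simulated data. Members, measures and rules for named regions (most other lists, first rows, densest windows, longest runs, extreme chromosome ratios) were chosen with earlier results of these data known. The planned comparison of the 2 protein sequences was not run, as no protein table was used. Alternatives were other overlap rules, peaks of 400 bp, autosomes, GABPA lists of the ETS1 size, other distances and, added after seeing the data, leaving out chromosomes 5, 9 and 20.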

Additional observations from a re-analysis of the deposited data

How the results depend on the processing

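With 1 library per factor, depth, peak strength and replicate error are unknown, so the values describe these lists. No paired analysis was possible because no factor has a second library. Under 11 alternatives, 122 of 146 recomputed values for 23 results held by the rule for their kind: differences kept their sign and whether the interval included 0, shares and medians stayed within the interval of the value reported, and counts stayed within 1.5 times. Such differences could still change in size, as given beside them. The overlap rule moved the shares: GABPA overlapped 7.29% of the ETS1 peaks with reciprocal overlap of 50% and 10.9% with gaps of up to 500 bp, ETS1 overlapped 1.97% and 2.94% of the GABPA peaks, and the median midpoint distance became 86.5 bp with reciprocal overlap. Cutting GABPA to the size of ETS1 moved more values. With its first rows and with evenly spaced rows, GABPA overlapped 4.77% and 2.71% of the ETS1 peaks, and ETS1 overlapped 4.77% of the first GABPA rows. The median midpoint distance became 149 bp with evenly spaced rows. The median GABPA spacing became 413 kb and 392 kb, the GABPA minus ETS1 share within 10 kb -0.734 and 0.367 percentage points, and the chromosomes with intervals apart 3 and 5 in number. The JUND difference between ETS1 peaks with and without GABPA, reported as -2.33 percentage points, was -1.88 with reciprocal overlap, -1.99 with gaps, -2.22 with first rows and -2.17 with evenly spaced rows, each with an interval that included 0. The ETV4 difference was 4.27 with first rows, with an interval above 0, and -0.992 with evenly spaced rows. The JUND difference between GABPA peaks with and without ETS1, -0.445, was 0.4998 with gaps, both with intervals that included 0. Fewer GABPA peaks leave fewer shared peaks for these; otherwise the cause was not tested. Without chromosomes 5, 9 and 20, the median spacing was 384 kb for ETS1 and 112 kb for GABPA, and the FLAG-ERG difference between ETS1 peaks with and without GABPA was 10.7 percentage points. These 3 chromosomes were picked from their row shares after seeing the data, and not every chromosome whose share differed was among them.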

Other observations

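The rows of the ETS1 and GABPA files followed a pattern that the FLAG lists lacked. In the GABPA file 68.4% of rows were on the same chromosome as the row before, and in the ETS1 file 27.5%, where the squared chromosome shares of the lists sum to 5.34% and 6.65%. Of such adjacent rows, 99.7% in GABPA and 97.5% in ETS1 were in ascending position. The longest stretch of rows on 1 chromosome was 31 in GABPA and 11 in ETS1. PC3 JUND (20.2%) and PC3 ETV4 (17.5%) showed the same ascending pattern, with 95.8% and 96.4% ascending. FLAG-ERG, with 7.35% of rows on the chromosome of the row before and 53.5% of these ascending, and FLAG-ETV1, with 5.63% and 52.8%, did not. In the ETS1 file the share rose from 8.28% in the first 20% of rows to 39.9% in the third part and was 30.3% in the last. In GABPA it was 40.4%, 80.7% and 67.8% in the same parts.

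The first 3 rows of the GABPA file, singled out after they were seen, lay together on chromosome 6, at 34619671 to 34620171, 34616619 to 34617050 and 34613917 to 34614318, within 6.255 kb and in descending position. GABPA peaks also lay more often near the last than near the first peak of a chromosome in any list. Within 5 Mb of the last peak lay 15.6% of the GABPA list and within 5 Mb of the first 8.55%, against 7.34% and 6.38% for ETS1. The first and last peaks need not lie at the physical ends. Exactly 1 PC3 JUND peak overlapped both an ETS1 and a GABPA peak, and these did not overlap each other.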
